A study of Saccharomyces cerevisiae with 23 samples.

Results

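Ribosome biogenesis factors are the nucleolar proteins that fold, modify, cut and assemble ribosomal RNA into ribosomal subunits. The 59 genes described here were chosen by gene name, as listed nucleolar assembly genes, and not by their measured values. Earlier results of these data were, however, known when they were chosen. They are 59 of the 6867 genes used from each table of a budding yeast (Saccharomyces cerevisiae) meiosis time course. The genes lie on 15 of the 16 nuclear chromosomes, and 2 of them, DBP2 and NOG2, have their coding sequence in 2 exons.

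The course followed 1 strain, labelled strain A 33606, from 0 to 10 h in sporulation (SPO) medium, with 1 library per time and 23 libraries in all. The cells had been grown on YPD plates, then in YPD liquid to saturation, and then diluted into BYTA medium overnight before the shift into SPO medium. Per the labels, copper sulphate was added after 2 h in SPO medium to induce IME1 and IME4, so that the culture entered meiosis together. The titles of all libraries from 2 h on name IME1 and IME4, and the 0 h title does not. All libraries share the strain, and the series has no uninduced course beside it. No time has a replicate, and the labels do not say whether the times come from 1 culture. The spread in each test is therefore that between neighbouring times.

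In growing yeast these genes form a large co-regulated group, the ribosome biogenesis regulon, which responds to nutrients through TORC1 and protein kinase A. Their promoters are known for a pair of short elements, PAC and RRPE. The repressors Dot6 and Tod6 bind PAC and the repressor Stb3 binds RRPE, while Sfp1 is an activator of the regulon. Meiosis in yeast starts under starvation, when ribosome production is low, and ends in the packaging of spores.

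The promoters are shown first because nearly all of the genes share these elements while a few of them followed a different course. In the sequences below, read by coordinates from RefSeq genome build R64, each line runs from 250 bases before the start codon to 50 bases from it onward. The files use the same build. Capitals mark the letters GATGAG (the PAC core) and AAAAATTT (the RRPE core), on either strand, so that CTCATC and AAATTTTT are the same elements read from the other strand. NSR1 and NOP1 had the largest late increases, and UTP22 holds neither element. DBP3 and DRS1 increased at 6.5 to 7.5 h, when most of the other factors were lower in the values as deposited. After scaling between libraries, 12 of the 58 tested factors fell there and 9 rose, DBP3 and DRS1 among the 9.

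NSR1: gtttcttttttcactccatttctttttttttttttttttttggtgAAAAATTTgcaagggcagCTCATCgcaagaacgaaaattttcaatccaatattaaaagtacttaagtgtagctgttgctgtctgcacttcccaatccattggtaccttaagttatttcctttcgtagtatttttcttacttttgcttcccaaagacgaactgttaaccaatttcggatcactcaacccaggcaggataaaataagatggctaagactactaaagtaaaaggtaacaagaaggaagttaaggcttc
NOP1: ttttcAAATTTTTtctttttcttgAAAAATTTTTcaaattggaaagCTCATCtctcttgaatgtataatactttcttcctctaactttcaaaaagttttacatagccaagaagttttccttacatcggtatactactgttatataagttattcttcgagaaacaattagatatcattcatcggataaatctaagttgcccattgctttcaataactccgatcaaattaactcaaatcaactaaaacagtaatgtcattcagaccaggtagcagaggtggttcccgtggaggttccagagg
DBP3: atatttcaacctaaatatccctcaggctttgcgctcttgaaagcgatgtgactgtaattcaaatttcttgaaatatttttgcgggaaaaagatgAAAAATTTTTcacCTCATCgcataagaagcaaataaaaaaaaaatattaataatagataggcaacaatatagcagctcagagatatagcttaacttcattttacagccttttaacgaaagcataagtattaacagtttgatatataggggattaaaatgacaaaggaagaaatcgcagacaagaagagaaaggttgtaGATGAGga
DRS1: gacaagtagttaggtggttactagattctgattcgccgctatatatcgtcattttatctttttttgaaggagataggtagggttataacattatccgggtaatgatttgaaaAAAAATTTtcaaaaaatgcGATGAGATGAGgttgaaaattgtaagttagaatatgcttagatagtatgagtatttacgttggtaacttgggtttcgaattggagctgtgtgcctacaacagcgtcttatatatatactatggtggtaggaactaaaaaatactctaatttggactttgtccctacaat
UTP22: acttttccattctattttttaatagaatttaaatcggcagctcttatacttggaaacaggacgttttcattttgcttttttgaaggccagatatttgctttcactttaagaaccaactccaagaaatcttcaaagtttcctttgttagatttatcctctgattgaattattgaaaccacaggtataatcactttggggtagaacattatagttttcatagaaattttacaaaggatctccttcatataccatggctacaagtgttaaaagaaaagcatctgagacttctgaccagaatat

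NSR1 lies on chromosome VII, minus strand, 806412 to 807656, and its printed stretch is chrVII:807607-807906. NOP1 lies on chromosome IV, plus strand, 427364 to 428347, and its stretch is chrIV:427114-427413. DBP3 lies on chromosome VII, minus strand, 360288 to 361859, and its stretch is chrVII:361810-362109. DRS1 lies on chromosome XII, plus strand, 131729 to 133987, and its stretch is chrXII:131479-131778. UTP22 lies on chromosome VII, plus strand, 662358 to 666071, and its stretch is chrVII:662108-662407.

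GATGAG stood in 56 of the 59 promoters (94.9%), against 20.4% of all 6001 promoters of the same length. AAAAATTT stood in 51 (86.4%), against 14.1% of all promoters. Both stood in 49 (83.1%), against 5.63% of all promoters, and the matches of the pair overlapped in 0 of them. Both strands were searched, and overlapping matches of 1 motif were each counted. The promoters of UTP15, UTP22 and SPB1 held no GATGAG in this window. Of the 88 GATGAG matches, 76 (86.4%) began between 200 and 50 bases before the start codon, against 60.2% of the 1441 matches in all promoters. In 43 of the 49 promoters with both, the closest AAAAATTT lay on the upstream side of GATGAG, against 64.8% of the 338 such promoters in all. Where AAAAATTT lay upstream, the median distance between their first bases was 18 bases in the 43 factors and 23 in the 219 promoters of all genes. In NSR1 the elements begin 205 and 187 bases before the start codon, and in NOP1 the single GATGAG begins 204 bases before it. DBP3 has a GATGAG 143 bases before its start codon with AAAAATTT matches at 156 and 154 bases, and DRS1 has a doubled GATGAG at 119 and 114 bases with AAAAATTT at 138 bases. The promoters of the DBP3 and DRS1 helicase genes, which did not follow the others, thus carry the same letters as most of the group. This does not hold for every factor with a different course. IMP4, MPP10 and SPB1 were also called higher at 6.5 to 10 h than at 4.75 to 6 h. In this window IMP4 held both elements, MPP10 held no AAAAATTT and SPB1 held no GATGAG. Whether the letters go with the course was not tested. CACAAA, 1 form of the core of the element bound by the meiotic activator Ndt80, was searched after the courses were seen. It stood in 9 of the 59 promoters (15.3%) against 18.8% of all promoters, and those of DBP3 and DRS1 had no match to these letters in this window. Other forms of the core were not searched, so this search cannot tell whether a promoter lacks the element. A match is a description of letters and not a measurement of binding.

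Levels are the authors' FPKM, fragments scaled to gene length and to the mapped fragments of the library, and folds are on the log2(FPKM + 1) scale. The total fragments behind the listed genes, read from the width of the deposited confidence bounds, ran from 368883 at 7.5 h to 1467240 at 4.75 h. The factors took 0.0580% of them at 2.25 h and 0.898% at 10 h. A single factor rested on a median of 1.99 fragments at 7.5 h, where 16 of the 59 were listed at 0, and of 88.1 at 10 h. These counts assume that the bounds cover counting error of 2 standard errors, and they cover counting error only. The copper-driven gene IME1, which encodes the master regulator of meiotic entry, stood at 40.4 FPKM at 0 h, 818 at 2 h and 9734 at 2.5 h. The mid-meiotic activator NDT80 peaked at 437.8 FPKM at 6.5 h, and the late spore wall gene DIT1 went from 13.1 FPKM at 7.5 h to 928 at 8 h. The level of the median gene moved over the course, with library scale factors from 0.253 at 7.5 h to 1.80 at 4.75 h, so a second reading after median-of-ratios scaling is given where it changes a call. In such bulk libraries, fewer cells that make an RNA and less of that RNA per cell cannot be told apart.

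**Figure D1:**
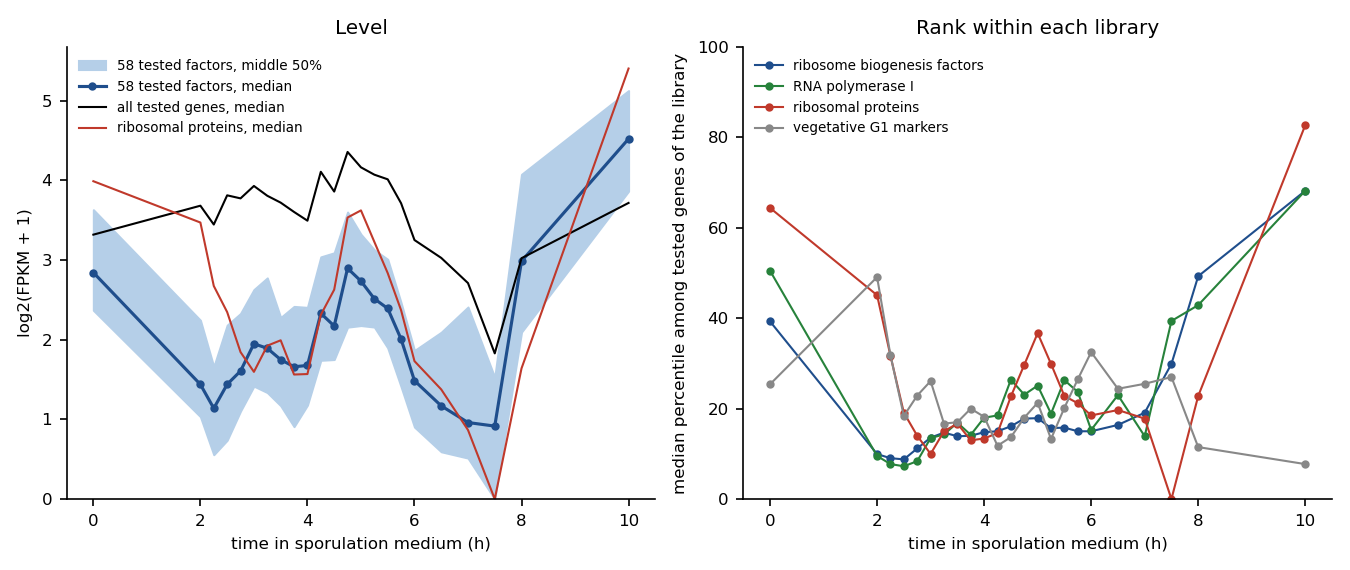
Left, level of the 58 tested factors over time in SPO medium in hours, as log2(FPKM + 1), with the median as a line with points and the middle 50% as a band, beside the medians of all tested genes and of 138 ribosomal protein genes. Right, the median percentile of 4 gene lists among all tested genes of the same library, where the factors stood at 39.3 at 0 h, 8.78 at 2.5 h and 68.2 at 10 h.

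The median factor was moderately expressed at 0 h, lower in most libraries from 2 to 7.5 h, and highest at 10 h. The median of the 58 tested factors was 6.17 FPKM at 0 h, 1.71 at 2 h and 1.20 at 2.25 h. It reached 6.44 FPKM at 4.75 h, fell back to 0.886 at 7.5 h, and stood at 6.92 at 8 h and 21.96 at 10 h. The median of all tested genes moved the same way in mid course, with 19.5 FPKM at 4.75 h and 2.55 at 7.5 h. Rank within a library does not depend on its scale. By rank the median factor stood at percentile 39.3 at 0 h, between 8.78 and 13.6 from 2 to 3 h, between 13.9 and 17.9 from 3.25 to 6 h, and at 16.4, 19.1 and 29.9 at 6.5, 7 and 7.5 h. The value at 7.5 h rests on few fragments. The median factor then stood at percentile 49.3 at 8 h and 68.2 at 10 h. At 8 h 31 of the 59 factors stood above their own 0 h level and 28 below it, against 43.0% of all tested genes above. NOP7, for one, had 8.81 FPKM at 8 h and 20.5 at 0 h. Of the 59 factors, 47 had their highest value of the whole course at 10 h, 5 at 4.75 h and 3 at 7 h. The shares of all tested genes with their maximum at these times were not counted.

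**Figure D2:**
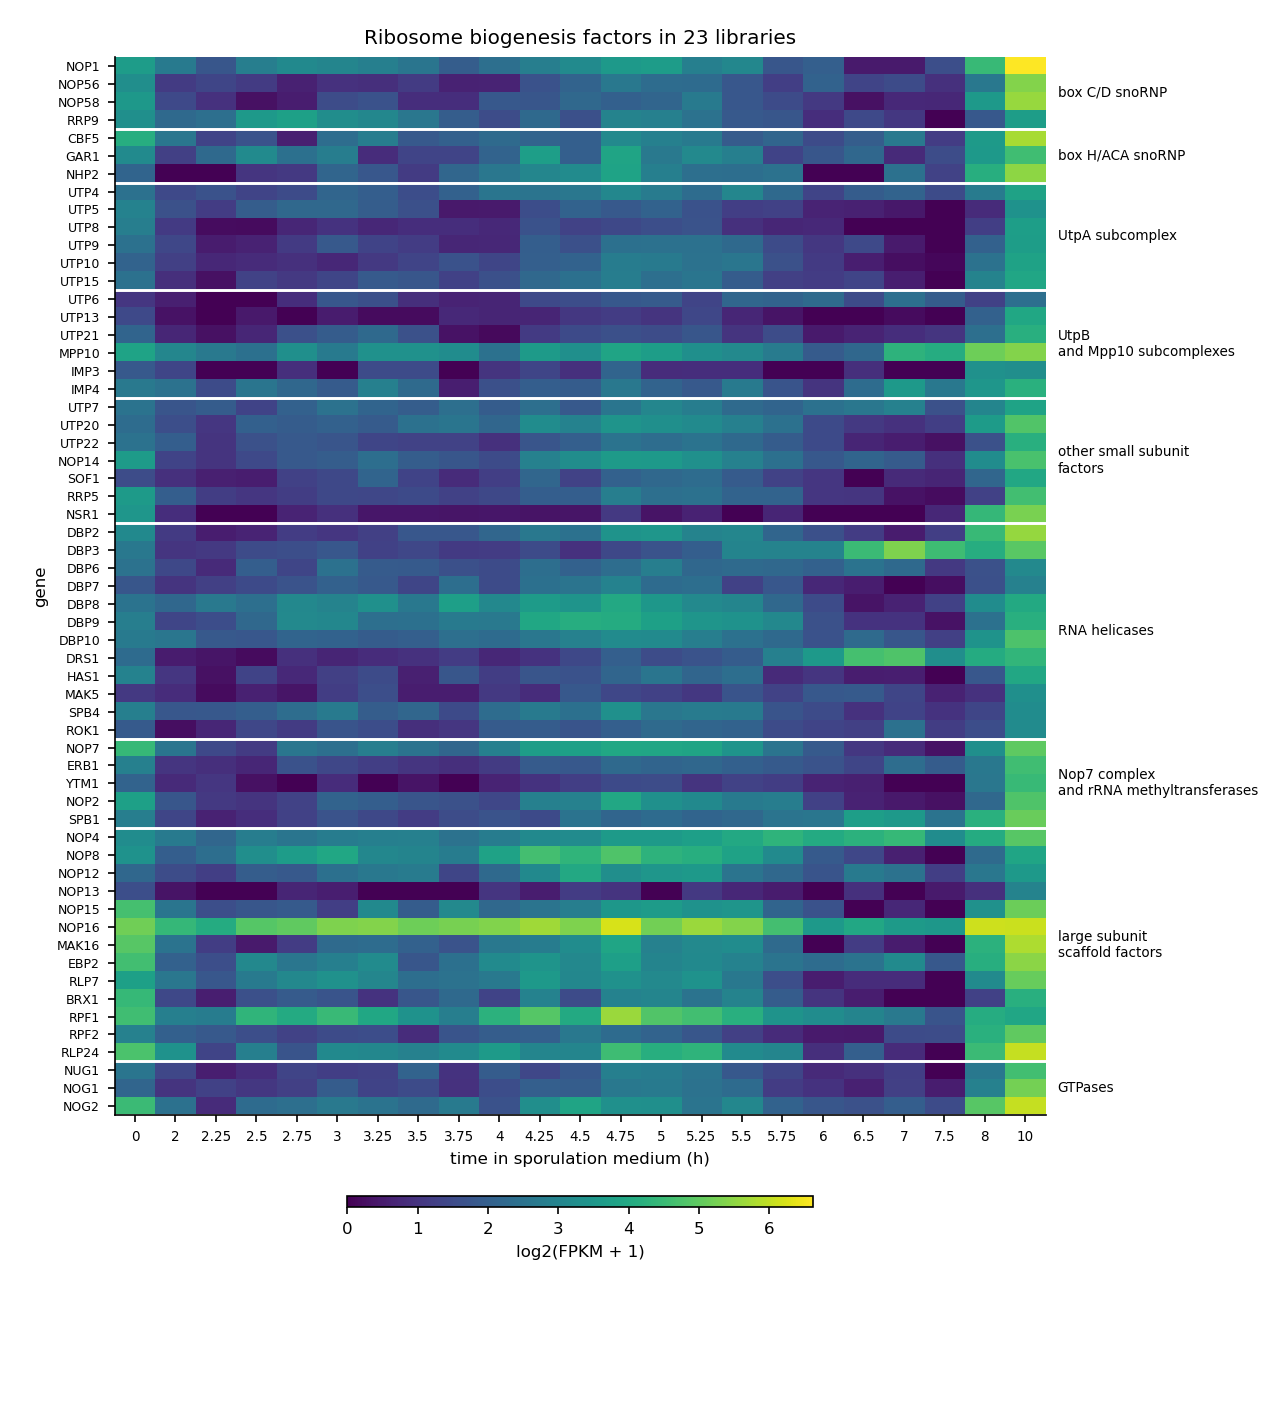
Level of each of the 59 factors (rows, by role group) in each of the 23 libraries (columns, hours in SPO medium), coloured by log2(FPKM + 1). The columns at 8 and 10 h are brighter than those at 6.5 to 7.5 h in nearly every row, while DBP3 and DRS1 are brightest at 7 h.

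At 2 h all 59 factors were below their 0 h level. Of the 58 tested factors, 40 were at least 2-fold lower, against 8.96% of all tested genes, and 0 were at least 2-fold higher, against 22.3%. For 38 the upper bound at 2 h lay below the lower bound at 0 h, against 8.95% of all tested genes. The median difference was -1.34 over the 59 factors and 0.33 over all tested genes. These are single libraries, so the difference has no replicate check. The gap was widest for BRX1, a Brix-domain assembly factor of the large subunit, with 20.8 FPKM at 0 h and 1.69 at 2 h. NSR1, the yeast relative of nucleolin, stood at 10.2 and 0.818 FPKM, and EBP2, a large subunit factor, at 23.6 and 3.15. DBP10, a helicase of the large subunit pathway, was nearly the same in both, with 5.56 and 5.10 FPKM. After scaling 48 of 58 were at least 2-fold lower, against 14.7% of all tested genes.

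**Figure D3:**
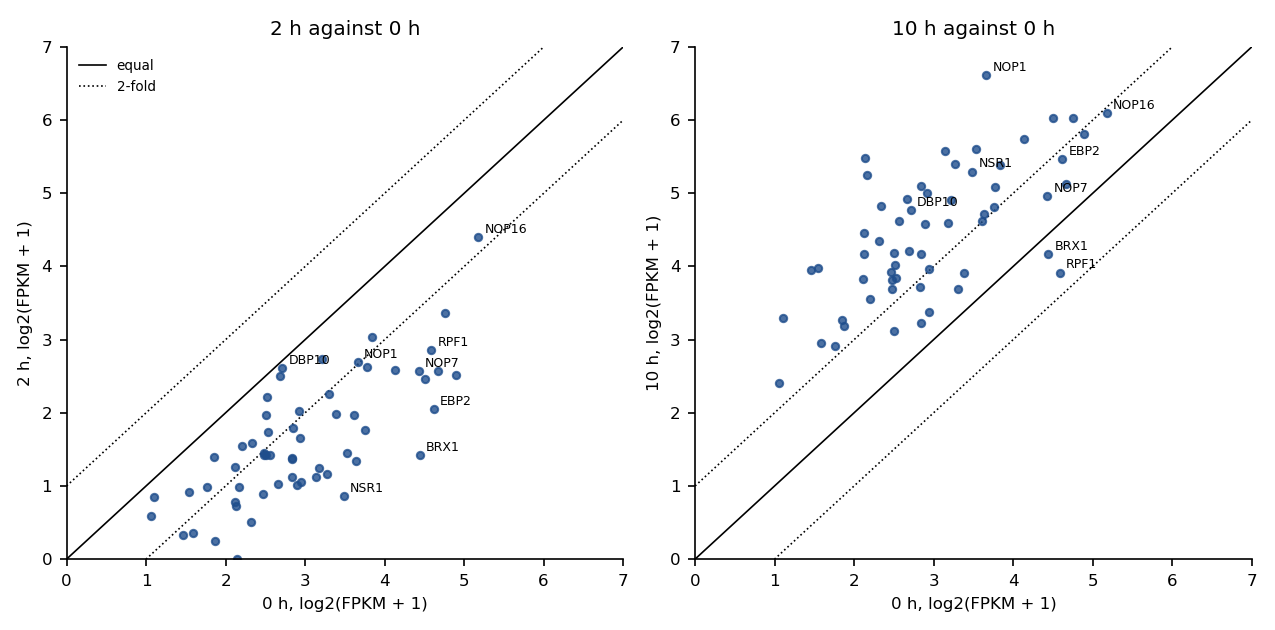
Level of each of the 59 factors at 2 h (left) and 10 h (right) against its level at 0 h, both as log2(FPKM + 1), with 1 library per time. At 2 h all points lie under the line of equality, and at 10 h 57 of the 59 lie above it.

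Between 2 and 6 h few factors were called by the window tests. No factor was called between 2 to 3 h (5 libraries) and 3.25 to 4.5 h (6 libraries) by limma, where a call needs an adjusted p under 0.05 and a log2 change of at least 1. None of them reached an unadjusted p under 0.05 there, against 777 of all tested genes, and the calls over all tested genes were 0.152% lower and 0.0762% higher. After scaling 0 factors were called as well, against 0.457% and 0.427% of all tested genes. From 3.25 to 4.5 h to 4.75 to 6 h (6 libraries), 2 factors rose and 0 fell, against 3.22% and 0.168% of all tested genes. These were the helicase genes DRS1, by 1.25 ± 0.33 (SE; adjusted p = 0.0378), and DBP3, by 1.10 ± 0.30 (adjusted p = 0.0428). The median changes over the 2 steps were 0.45 and 0.27 for the factors and 0.05 and 0.14 for all tested genes. Single factors did have a maximum in this span, as in the spline ended at 7.5 h, where the fitted maximum of NOP8 lay at 4.45 h (range 4.69) and that of DBP9 at 4.5 h (range 3.73). Both ranges run down to a fitted minimum at 7.5 h, after this span, and are on values as deposited. The calls of DRS1 and DBP3 were lost after scaling, which called 0 factors against 1.13% of all tested genes, and without any 1 of the libraries at 3.25, 3.5, 3.75, 4, 5.5, 5.75 or 6 h. Within 2 to 7.5 h, 46 of the 59 factors had their highest value from 4.25 to 6 h, 26 of them at 4.75 h, the library with the largest scale factor. The median of all tested genes was also highest at 4.75 h, and the matching shares of all tested genes were not counted.

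At 6.5 to 7.5 h (3 libraries) most factors were below their level at 4.75 to 6 h, as most genes were. In this contrast, added after the data were seen, 30 of 58 fell and 2 rose, against 54.4% and 6.01% of all tested genes. The share that fell is near that of all genes (30 of 58 is set against 3570 of 6560). The median change was -1.22 for the factors and -1.35 for all tested genes. In 22 of the 58 every library of 6.5 to 7.5 h lay below every library of 4.75 to 6 h, against 44.1% of all tested genes, and in 1 every library lay above, against 3.81%. After scaling 12 fell and 9 rose, against 25.0% and 22.5%. The 12 that fell under both readings include 6 of the large subunit scaffold group and 3 of the helicases. NOP8, a large subunit factor, fell by 3.01 ± 0.59 on the log2 scale (adjusted p = 0.000216), NOP15 by 2.72 ± 0.47 (adjusted p = 6.35e-05), NOP7 by 2.53 ± 0.50 (adjusted p = 0.000242) and DBP9 by 2.48 ± 0.54 (adjusted p = 0.000546). The 2 that rose, also after scaling, were again DBP3 and DRS1.

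At 8 and 10 h the factors returned together. Of the 58 tested, 46 rose against 6.5 to 7.5 h and 0 fell, where 23.4% of all tested genes rose and 4.16% fell. The median change was 2.49 for the factors and 0.56 for all tested genes. In 49 of the 58 both late libraries lay above all 3 earlier ones, against 34.3% of all tested genes. After scaling 42 rose and 0 fell, against 19.9% and 19.7% of all tested genes, and all 42 were among the 46. This result leans on the last library. Without 10 h 17 rose, against 5.30% of all tested genes, namely DBP2, DBP8, IMP3, MAK16, NOG2, NOP1, NOP15, NOP16, NOP58, NSR1, RLP24, RPF2, UTP10, UTP13, UTP15, UTP20 and YTM1, and without 8 h 49 rose, against 29.7%. The 5 largest changes were those of NOP1 (4.70 ± 0.62, adjusted p = 6e-05), NSR1 (4.60 ± 0.47, adjusted p = 5.21e-06), MAK16 (4.47 ± 0.82, adjusted p = 0.000651), RLP24 (4.34 ± 0.83, adjusted p = 0.000841) and DBP2 (4.05 ± 0.53, adjusted p = 5.46e-05).

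The step came in both late libraries. At 8 h 57 of the 59 factors stood above 7.5 h, where 79.5% of all tested genes did, and for 48 the bounds did not overlap, against 33.6% of all tested genes. These are values as deposited, with scale factors of 0.253 at 7.5 h and 0.689 at 8 h. After scaling, some factors were lower at 8 h, as MPP10 with 63.7 and 50.8. Others were higher, as NOP1 with 7.93 and 30.6. The counts were not taken after scaling. At 10 h 56 of the 59 stood above 8 h, where 65.5% of all tested genes did, with bounds apart for 49, against 30.8% of all tested genes. Against 0 h, 45 of the 58 tested were at least 2-fold higher at 10 h, where 30.9% of all tested genes were, and 0 were at least 2-fold lower, where 17.5% were. After scaling 39 were at least 2-fold higher, against 24.9%, and 21.4% of all tested genes were at least 2-fold lower. For 48 of the 59 the lower bound at 10 h lay above the upper bound at 0 h, against 29.6% of all tested genes. The exceptions below their 0 h level were BRX1, with 17.0 FPKM at 10 h and 20.8 at 0 h, and RPF1, with 14.1 and 23.1. RPF1 is, like BRX1, a Brix-domain protein of the large subunit pathway.

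**Figure D4:**
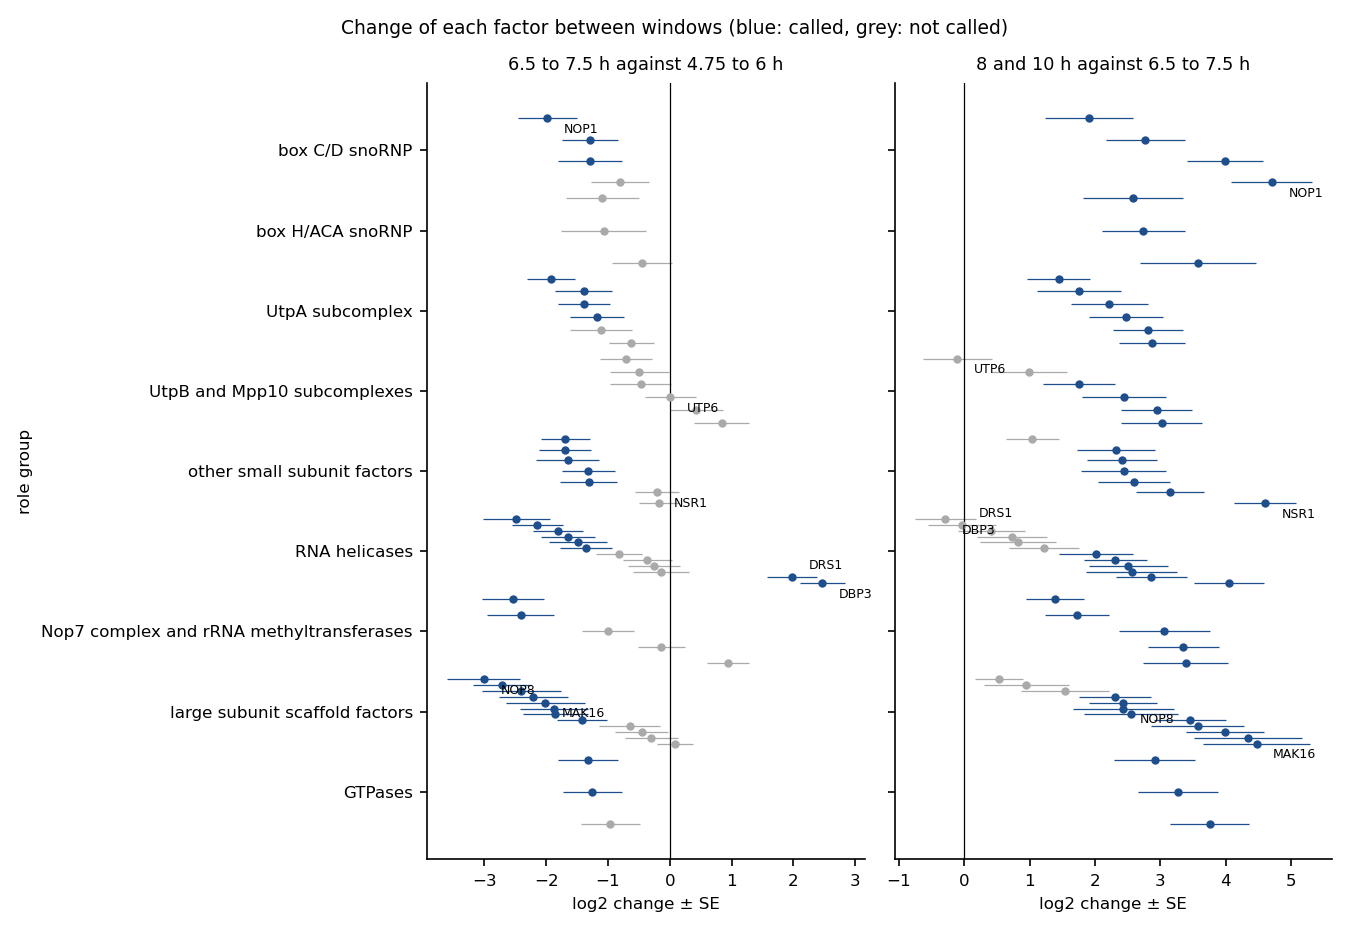
Log2 change ± SE (horizontal axis) of each tested factor, by role group (vertical axis), between 4.75 to 6 h and 6.5 to 7.5 h (left) and between 6.5 to 7.5 h and 8 and 10 h (right), with called changes in blue. On the left DBP3 and DRS1 are the 2 called points above 0, and on the right 46 points are called and all of them lie above 0.

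A spline of time over the 22 libraries from 2 h on called 55 of the 58 as a rise and 2, RRP9 and UTP5, as a fall, against 31.1% and 52.0% of all tested genes. A rise means that the larger departure from the fitted 2 h level was upward. The fitted maximum lay at 10 h for 54 of the 58, so this call describes the end of the course. Without the 10 h library the counts were 36 and 7, against 27.1% and 54.5%, and with the course ended at 7.5 h they were 23 and 24, against 24.7% and 58.7% of all tested genes. After scaling the counts were 56 and 1, against 38.1% and 39.9%, and UTP5 was then a rise (signed range 2.64). DBP6, a helicase, was the tested factor without a call (range 1.46, adjusted p = 0.0672).

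The box C/D proteins belong to particles that methylate ribosomal RNA or act in its processing, and all 4 rose at 8 and 10 h. NOP1, the methyltransferase fibrillarin, stood at 11.7 FPKM at 0 h, between 2.39 and 11.7 (median 6.07) in the 17 libraries of 2 to 6 h, at 0.383, 0.392 and 2.01 at 6.5, 7 and 7.5 h, and at 21.1 and 97.3 at 8 and 10 h. The 10 h value is the highest of any of the 59 genes in any library. NOP58, a core protein of the same particles, stood at 10.6 FPKM at 0 h, had a median of 1.90 over 2 to 6 h, and reached 11.0 and 47.7 at 8 and 10 h. RRP9, a protein of the snoRNA particle that acts in small subunit processing, differed from its partners early. It had its highest value of the course, 12.7 FPKM, at 2.75 h, was listed at 0 at 7.5 h, and stood at 2.51 and 11.9 at 8 and 10 h. Of the RRP9 gene, 27.8% is overlapped by YPR136C.

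The box H/ACA proteins belong to particles that form pseudouridine in ribosomal RNA, and all 3 rose at 8 and 10 h. CBF5, the pseudouridine synthase, stood at 16.5 FPKM at 0 h, between 0.487 and 7.75 (median 3.35) over 2 to 6 h, at 2.87, 5.39 and 1.25 at 6.5, 7 and 7.5 h, and at 11.1 and 52.6 at 8 and 10 h. Only the 10 h value exceeded that at 0 h. NHP2, a core protein, stood at 3.40 FPKM at 0 h, was listed at 0 at 2, 2.25, 6 and 6.5 h, peaked at 13.2 at 4.75 h, and reached 16.9 and 43.9 at 8 and 10 h. Its spline range of 5.99 was the widest of the 59 genes. In the late contrast NHP2 rose by 3.57 ± 0.89 (adjusted p = 0.00548) and CBF5 by 2.74 ± 0.63 (adjusted p = 0.00329).

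The UtpA proteins are the first to bind the nascent transcript of the ribosomal DNA, and all 6 rose at 8 and 10 h, 5 of them also after scaling. UTP4, the exception after scaling (0.78), stood at 4.57 FPKM at 0 h, between 1.57 and 7.43 (median 3.47) over 2 to 6 h, at 2.81, 3.31 and 1.84 at 6.5, 7 and 7.5 h, and at 5.77 and 13.0 at 8 and 10 h. UTP8 was lower. It stood at 6.11 FPKM at 0 h, had a median of 0.831 over 2 to 6 h, was listed at 0 at 6.5, 7 and 7.5 h, and reached 1.33 and 12.1 at 8 and 10 h. UTP8 rose by 2.47 ± 0.57 (adjusted p = 0.00328), and only its 10 h value exceeded that at 0 h.

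Of the UtpB and Mpp10 proteins, which join the small subunit precursor next, 4 of 6 rose at 8 and 10 h and 3 did after scaling. UTP13 stood at 1.75 FPKM at 0 h, between 0 and 1.67 (median 0.410) over 2 to 6 h, at 0, 0.136 and 0 at 6.5, 7 and 7.5 h, and at 3.16 and 14.5 at 8 and 10 h. From 2 to 7.5 h UTP13 thus never exceeded 1.67 FPKM. MPP10 had high values already at 7 and 7.5 h. It stood at 13.3 FPKM at 0 h, between 2.75 and 13.4 (median 8.31) over 2 to 6 h, at 3.60, 18.4 and 16.1 at 6.5, 7 and 7.5 h, and at 35.0 and 40.7 at 8 and 10 h. IMP4, its partner, stood at 4.02, 11.0 and 5.26 FPKM at 6.5, 7 and 7.5 h and at 10.1 and 17.6 at 8 and 10 h. Against 4.75 to 6 h, the whole of 6.5 to 10 h was higher by 1.13 ± 0.44 for MPP10 (adjusted p = 0.0358) and by 1.24 ± 0.41 for IMP4 (adjusted p = 0.0146). UTP6 was not called in the late contrast (-0.11 ± 0.53, adjusted p = 0.910) and stood at 1.87, 4.37 and 2.80 FPKM at 6.5, 7 and 7.5 h against 1.44 and 4.31 at 8 and 10 h.

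Among the other small subunit factors 6 of 7 rose at 8 and 10 h, as deposited and after scaling. NSR1 was at or near 0 between the first and the late libraries. It stood at 10.2 FPKM at 0 h, between 0 and 1.13 (median 0.309) in the 17 libraries of 2 to 6 h, at 0, 0 and 0.667 at 6.5, 7 and 7.5 h, and at 20.2 and 38.3 at 8 and 10 h. The late libraries do not overlap with any of the 20 in between. Of the gene, 46.9% is overlapped by YGR160W, and no source used here gives the strand setting of the counts. NOP14 stood at 11.4 FPKM at 0 h, had a median of 2.90 over 2 to 6 h with a maximum of 11.2 at 4.75 h, and reached 8.26 and 25.3 at 8 and 10 h. UTP22, whose promoter window held neither element, stood at 4.67 FPKM at 0 h, had a median of 2.38 over 2 to 6 h, stood at 0.596, 0.436 and 0.223 at 6.5, 7 and 7.5 h, and reached 2.12 and 17.1 at 8 and 10 h. Its change of 2.41 ± 0.54 (adjusted p = 0.00269) is near the median of the factors.

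Of the RNA helicases, which remodel the precursors, 6 of 12 rose at 8 and 10 h, also after scaling. DBP2 followed the group. It stood at 7.82 FPKM at 0 h, between 0.434 and 10.2 (median 2.47) over 2 to 6 h, at 1.25, 0.426 and 1.36 at 6.5, 7 and 7.5 h, and at 20.9 and 47.0 at 8 and 10 h. DBP3, a helicase of early large subunit processing, stood at 5.33 FPKM at 0 h, between 0.918 and 6.91 (median 1.83) over 2 to 6 h, at 21.9, 39.8 and 22.6 at 6.5, 7 and 7.5 h, and at 16.3 and 29.3 at 8 and 10 h. All 3 libraries of 6.5 to 7.5 h lay above all of 2 to 6 h. DRS1, a helicase of large subunit assembly, stood at 3.99 FPKM at 0 h, had a median of 0.949 over 2 to 6 h with 6.35 at 5.75 h and 10.7 at 6 h, and stood at 24.6, 26.6 and 8.57 at 6.5, 7 and 7.5 h and at 15.7 and 19.4 at 8 and 10 h. Only its 7.5 h value fell below the value at 6 h.

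The rise against 4.75 to 6 h was 2.47 ± 0.36 for DBP3 (adjusted p = 1.62e-05) and 1.98 ± 0.41 for DRS1 (adjusted p = 0.000321), in an interval in which the median gene was lower by 1.35. After scaling the changes were 3.86 and 3.34. In the late contrast neither was called, with -0.29 ± 0.47 for DBP3 (adjusted p = 0.682) and -0.04 ± 0.52 for DRS1 (adjusted p = 0.977). Neither gene is overlapped by another listed gene. The nearest gene downstream of DBP3, KXD1, lies 187 bases away on the opposite strand and went from a mean of 13.8 FPKM at 4.75 to 6 h to 0.947 at 6.5 to 7.5 h. The nearest gene downstream of DRS1, LMO1, lies 314 bases away on the opposite strand and had 3.34 and 0.595 FPKM. Both downstream neighbours were lower at 6.5 to 7.5 h, as the median gene was. Whether transcripts of neighbouring genes add to the values of DBP3 and DRS1 was not tested. Upstream, HNM1, on the same strand as DBP3 and 365 bases away, had 6.54 and 8.29 FPKM, and COX17, on the opposite strand to DRS1, had 25.2 and 8.89. DBP9, another large subunit helicase, went the other way from DBP3 at 6.5 to 7.5 h. Its highest value of 2 to 6 h was 16.5 FPKM at 4.5 h. It stood at 0.946, 0.967 and 0.247 at 6.5, 7 and 7.5 h, and at 4.49 and 17.0 at 8 and 10 h.

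**Figure D5:**
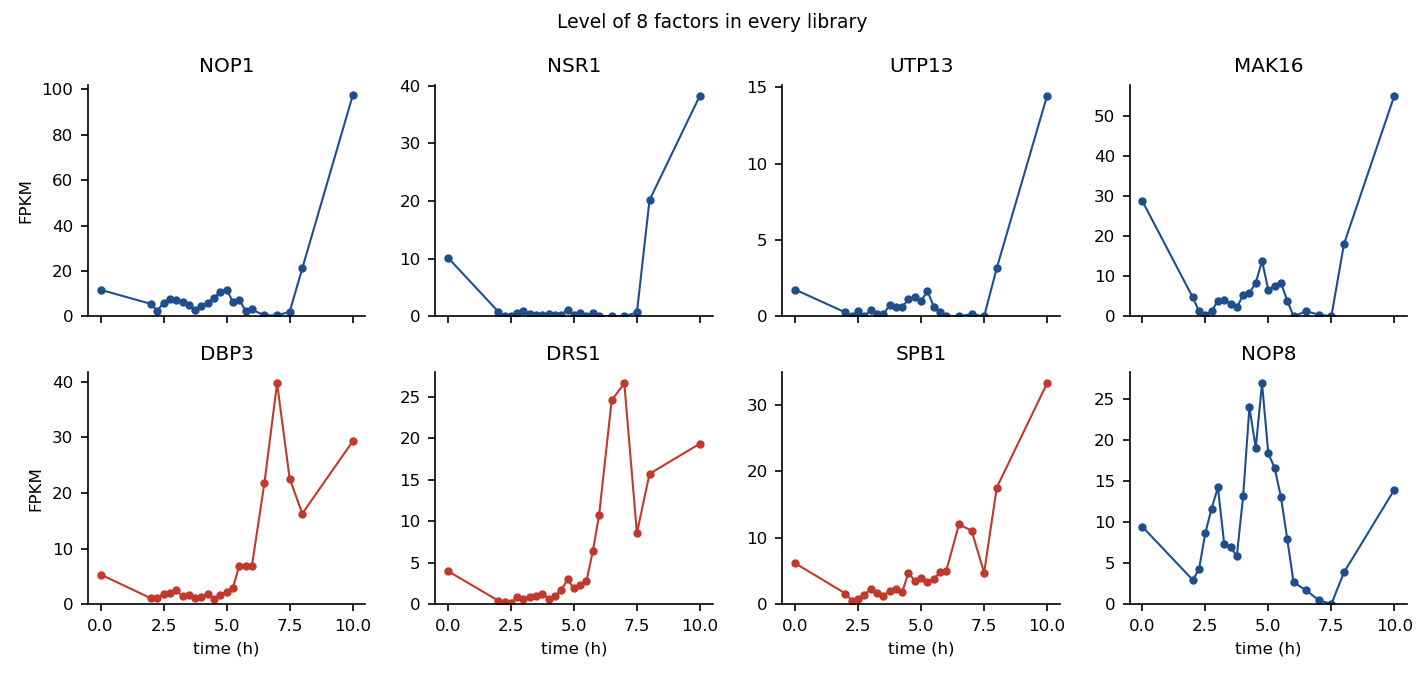
Level in FPKM of 8 factors in every library against hours in SPO medium, each on its own vertical axis, with red for the 3 that rose at 6.5 to 10 h against 4.75 to 6 h. NOP1, NSR1, UTP13 and MAK16 are highest at 10 h, DBP3 and DRS1 are highest at 7 h, SPB1 has a smaller maximum of 12.0 at 6.5 h before its late values, and NOP8 is highest, at 27.0, at 4.75 h.

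All 5 genes of the Nop7 complex and methyltransferase group rose at 8 and 10 h, and 3 of them did after scaling. NOP7, which with Erb1 and Ytm1 forms a complex needed for the large subunit, stood at 20.5 FPKM at 0 h, between 1.21 and 14.5 (median 5.09) over 2 to 6 h, at 1.11, 0.758 and 0.242 at 6.5, 7 and 7.5 h, and at 8.81 and 30.3 at 8 and 10 h. YTM1 stood at 3.35 FPKM at 0 h, between 0 and 1.88 (median 0.782) over 2 to 6 h, at 0.507, 0 and 0 at 6.5, 7 and 7.5 h, and at 5.20 and 21.0 at 8 and 10 h. SPB1, a methyltransferase of the large subunit RNA, was partway between this course and that of DBP3. It stood at 6.15 FPKM at 0 h, had a median of 2.21 over 2 to 6 h, stood at 12.0, 11.1 and 4.72 at 6.5, 7 and 7.5 h, and reached 17.5 and 33.2 at 8 and 10 h. Against 4.75 to 6 h the whole of 6.5 to 10 h was higher by 1.50 ± 0.35 for SPB1 (adjusted p = 0.00140).

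Of the 12 tested large subunit scaffold factors 9 rose at 8 and 10 h, also after scaling. NOP16 had the highest mean of the 59 genes. It stood at 35.1 FPKM at 0 h, between 10.9 and 73.2 (median 37.7) over 2 to 6 h, at 14.6, 11.2 and 10.3 at 6.5, 7 and 7.5 h, and at 68.8 and 67.3 at 8 and 10 h. Its median over 2 to 6 h was above its 0 h value as deposited but not after scaling, where the 0 h value was 44.6 and no library of 2 to 6 h exceeded 41.1. MAK16 stood at 28.8 FPKM at 0 h, between 0 and 13.8 (median 4.11) over 2 to 6 h, at 1.25, 0.426 and 0 at 6.5, 7 and 7.5 h, and at 18.0 and 55.0 at 8 and 10 h. RLP24, which holds the place of a ribosomal protein in the precursor, had a median of 7.43 FPKM over 2 to 6 h, stood at 3.02, 0.771 and 0 at 6.5, 7 and 7.5 h, and reached 21.99 and 64.6 at 8 and 10 h.

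NOP8 and RPF1 were among the factors that peaked in mid course as deposited, and NOP8 also did after scaling. NOP12 was highest at 4.5 h under both readings. It had 14.9 FPKM there against 10.8 at 10 h as deposited, and 12.1 against 11.2 after scaling. NOP8 stood at 9.46 FPKM at 0 h, between 2.67 and 27.0 (median 11.7) over 2 to 6 h, at 1.67, 0.489 and 0 at 6.5, 7 and 7.5 h, and at 3.87 and 14.0 at 8 and 10 h. RPF1 stood at 23.1 FPKM at 0 h, had its maximum of 48.6 at 4.75 h, and stood at 6.99, 5.36 and 2.29 at 6.5, 7 and 7.5 h and at 16.04 and 14.1 at 8 and 10 h. After scaling RPF1 was highest at 0 h, with 29.3 against 26.9 at 4.75 h, and NOP8 was highest at 4.25 h, with 15.6. Over the whole of 6.5 to 10 h against 4.75 to 6 h, 3 factors fell and 5 rose, against 43.8% and 4.09% of all tested genes. The falls were those of NOP8 (-2.04 ± 0.61, adjusted p = 0.00780), DBP9 (-1.46 ± 0.58, adjusted p = 0.0411) and RPF1 (-1.23 ± 0.50, adjusted p = 0.0412), and that of NOP8 alone held after scaling. The rises were those of DBP3 (2.35), DRS1 (1.96), SPB1, IMP4 and MPP10, and all 5 held after scaling, where 15 factors rose and 1 fell, against 15.8% and 17.1% of all tested genes. Without the 10 h library 16 fell and 3 rose, and without the 4.75 h library 1 fell. The shares of all tested genes were not computed for these fits, so the counts show only that the result moves. NOP4, an RNA-binding factor, stood at 3.54 FPKM at 2.25 h, 20.6 at 7 h and 8.31 at 7.5 h, and reached 15.9 and 28.9 at 8 and 10 h, and part of it is overlapped by YPL044C. NOP13 had a mean of 0.793 FPKM and was not tested. It stood at 2.00 FPKM at 0 h, at 6.74 at 10 h and at no more than 1.25 in between, with 44.5% of the gene overlapped by YNL174W.

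The 3 GTPases that act in late nucleolar and nuclear steps of the large subunit all rose at 8 and 10 h, also after scaling. NOG2 stood at 21.7 FPKM at 0 h, between 0.745 and 13.5 (median 4.69) over 2 to 6 h, at 2.14, 2.92 and 1.87 at 6.5, 7 and 7.5 h, and at 28.8 and 64.5 at 8 and 10 h, a rise of 3.75 ± 0.61 (adjusted p = 0.000286). Of the gene, 13.7% is overlapped by SNR191. NOG1 stood at 3.49 FPKM at 0 h, had a median of 1.85 over 2 to 6 h, and reached 6.50 and 36.9 at 8 and 10 h. Its 10 h value was the furthest above 0 h among the 3.

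Of 8 genes of RNA polymerase I, which transcribes the ribosomal RNA precursor, 6 rose at 8 and 10 h, against 23.4% of all tested genes. Of 82 tested further biogenesis factors 56 rose, and of 138 ribosomal protein genes 68 did. After scaling 6, 59 and 73 genes of these 3 lists rose, against 19.9% of all tested genes. Of 67 genes for mitochondrial ribosomal proteins, which share the name but not the regulon, 9 rose and 2 fell as deposited, and 8 rose and 14 fell after scaling. The shares of all tested genes that fell were 4.16% and 19.7%. At 8 h 48 of the 59 factors were above 7.5 h with bounds apart, against 33.6% of all tested genes. So were 20 of the 138 ribosomal protein genes. Of these 138, 89 were listed at 0 at 7.5 h and 30 at 8 h. Their FPKM was higher at 8 h than at 7.5 h in 94 of the 138. From 8 to 10 h the bounds were apart for 49 of 59 and 125 of 138, against 30.8% of all tested genes. The difference between the lists was not tested. The median of the ribosomal protein genes was 2.12 FPKM at 8 h, percentile 22.8, and 41.3 FPKM at 10 h, percentile 82.7. Many ribosomal protein genes come in near-identical pairs, whose reads the authors' counting could split.

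Of the 7 regulators, 4 rose at 8 and 10 h, 3 of them also after scaling, against 23.4% and 19.9% of all tested genes. SFP1, the activator, stood at 13.8 FPKM at 0 h, 4.85, 5.13 and 5.93 at 6.5, 7 and 7.5 h, and 31.5 and 38.7 at 8 and 10 h, a rise of 2.51 ± 0.48 (adjusted p = 0.000867). IFH1 rose by 1.88 ± 0.50 (adjusted p = 0.00895) and FHL1, both regulators of ribosomal protein genes, by 1.42 ± 0.43 (adjusted p = 0.0184), the latter not after scaling. SCH9, a growth kinase under TORC1, rose by 1.87 ± 0.42 (adjusted p = 0.00278). The repressor STB3 was not called (-0.23 ± 0.50, adjusted p = 0.778), nor was DOT6 (-0.53 ± 0.55, adjusted p = 0.496), but both were lower after scaling, by -1.08 and -1.40. STB3 stood at 55.4 FPKM at 0 h and at 190.8 at 4.25 h, and DOT6 at 75.9 at 0 h and at 227.2 at 5.75 h. TOD6 was not called (1.43 ± 0.68, adjusted p = 0.119).

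The 4 markers of vegetative G1, the cyclin genes CLN1, CLN2, PCL1 and PCL2, had their highest median, 11.9 FPKM, at 2 h, where the factors were low. Their median was 3.56 FPKM at 0 h, 0.785 at 8 h and 1.46 at 10 h, with single values from 1.05 to 3.79 at 10 h, and 0 of 4 rose at 8 and 10 h. At 10 h their median percentile was 7.74, the lowest of the 23 libraries. Their part in the result was not tested. The spore wall genes DIT1 and SPS100 were at their highest at 10 h, with 1471 and 119.8 FPKM.

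As a description of how alike the 59 courses were, each factor was set against the median of the others over the 22 libraries from 2 h on, after scaling. Spearman's rho was highest for DBP2 (0.92), UTP20 (0.87) and NOP58 (0.82). It was lowest for RRP9 (-0.18), UTP5 (0.01), IMP4 (0.04) and DBP3 (0.14). The libraries share 1 strain and differ in depth, and low genes carry more counting error, so these are no measure of control.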

How the data were processed

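Total RNA was primed with random hexamers, per the labels' protocols. Bowtie and Cufflinks 2.2.1 were used with build R64 (sacCer3), per the submitters' processing notes. No source used here gives the strand setting or the level of the confidence bounds. The authors deposited FPKM per gene with these bounds, per the file headers, in 7132 rows per library. Of these, 11 (flagged for excess fragments) and 254 (with no gene name) were not used.

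Tests used limma 3.58.1 (R 4.3.3) on log2(FPKM + 1), with an intensity trend, for the 6560 genes averaging at least 1 FPKM. A natural spline with 4 degrees of freedom and window means were fitted, with Benjamini-Hochberg adjustment over all tested genes and a threshold of 0.05. In 6 of the 59 factors, 5 of them tested, the mean over 2 to 7.5 h was under 1 FPKM. Alternatives were scaling, pseudocount, filter, spline flexibility, window borders and each library left out. The contrast of 6.5 to 7.5 h against 4.75 to 6 h, the course ended at 7.5 h the 2-fold count at 10 h, and the counts of 8 h against 0 h were added after seeing the data. Factors and lists were chosen with earlier results of these data known. Named were the factor of each role group with the highest mean and that with the widest fitted range, and up to 5 called per contrast and direction. BRX1, DBP6, DBP10, EBP2, NOG1, NOP4, NOP12, NOP13, NOP58, RRP9, UTP5, UTP6 and UTP22 were chosen after their values were seen.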

Additional observations from a re-analysis of the deposited data

How the results depend on the processing

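No paired analysis was possible because each time is 1 library and no replicate numbers are given. The fall over 2 h against 0 h, the lack of calls at 3.25 to 4.5 h and the direction of the late rise held under all alternatives run, but counts moved. Median-of-ratios scaling gave 1 spline fall, 0 factors higher at 4.75 to 6 h, 1 lower and 15 higher at 6.5 to 10 h, and 12 lower and 9 higher at 6.5 to 7.5 h. It turned NOP16 at 6.5 to 7.5 h to 0.07 and the signed spline range of UTP5 to 2.64. A pseudocount of 0.1 gave 5 spline falls. A pseudocount of 5 gave 1 spline fall, 0 higher at 4.75 to 6 h, 1 lower at 6.5 to 10 h, 9 lower at 6.5 to 7.5 h and 17 at least 2-fold lower at 2 h. A filter at a mean of 5 FPKM, which tests fewer genes, gave 0 spline falls and 27 rises, 0 higher at 4.75 to 6 h, 22 higher at 8 and 10 h, 15 lower at 6.5 to 7.5 h, 19 lower at 2 h, 20 higher at 10 h and a range of the median percentile of 66.8. A spline with 3 degrees of freedom gave 1 fall. Moved window borders gave 0 higher at 4.75 to 6 h, and 9 lower and 3 higher at 6.5 to 10 h. Ending the course at 7.5 h gave 24 falls and 23 rises. For the pseudocount, filter, spline flexibility and window border alternatives the shares of all tested genes were not computed. These counts thus have no background beside them. The causes were not tested.

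With each library left out, spline falls ran from 1 to 7 and rises from 36 to 56, factors higher at 4.75 to 6 h from 0 to 3, lower at 6.5 to 10 h from 1 to 16 and higher from 3 to 7, higher at 8 and 10 h from 17 to 49, and at 6.5 to 7.5 h lower from 21 to 35 and higher from 2 to 3. The extremes 36, 7, 16 and 17 came without the 10 h library. Shares of all tested genes were computed for few of these fits, so most of the counts have no background beside them. The signed spline range changed sign without 10 h for NOP1 (-2.13 to 5.67 over all libraries left out), NOP56 (-1.54 to 4.85), GAR1 (-1.35 to 3.33), UTP22 (-1.40 to 3.35), RRP5 (-1.81 to 3.93), YTM1 (-1.49 to 4.67), RLP7 (-2.61 to 4.60) and RPF2 (-3.07 to 4.56), and without 8 h for DBP8 (-3.05 to 3.29). It did without 2 h for RPF1 (-2.09 to 2.28), without 2, 2.25 or 10 h for SPB4 (-2.17 to 2.18), without 2 or 2.25 h for NOP8 (-3.78 to 3.83), and without 3.75 or 7.5 h for UTP5 (-2.90 to 2.82). Depth limits the lowest factors most, at 7.5 h above all.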
